A study of Mus musculus with 4 samples.

Results

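Aldh1l2, Lars and Xpot were followed through 4 libraries of nascent RNA. The cells were 3T3-L1, a mouse line that can be turned into adipocytes. The genes were chosen because reads over 3 long stretches of the minus strand were higher with FCCP under both siRNAs, so the FCCP ratios of these stretches are given as a description. The stretches, in build mm8 and counted from 1, were chromosome 10 from 82910001 to 82970000 (Aldh1l2), chromosome 18 from 42320001 to 42390000 (Lars) and chromosome 10 from 120990001 to 121030000 (Xpot). They held 17 of the 74605 strand-specific windows of 10 kb with at least 40 reads over the 4 libraries, and all 17 had enough reads to be measured. The gene names rest on position and strand only, since the annotation at hand is of build GRCm38 and coordinates were not converted.

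The measurement was GRO-seq, in which nuclei are isolated and engaged polymerases are allowed to extend their RNA a short way, so that reads mark transcription in progress by place and strand. The groups were control siRNA without FCCP (siCTL), control siRNA after 3 hours of FCCP (siCTL with FCCP), siRNA against GPS2 without FCCP (siGPS2) and siRNA against GPS2 after 3 hours of FCCP (siGPS2 with FCCP), with 1 library each. FCCP is an uncoupler of mitochondrial respiration and GPS2 a transcriptional cofactor, and the question was how the nucleus responds to uncoupling with and without GPS2. All 4 groups carried an siRNA, and the concentration of FCCP is not given in the sources used here. With no replicate of any group, no difference below has a replicate check.

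When mitochondria are impaired, stress kinases can slow translation while favouring that of the transcription factor ATF4, which then raises genes of amino acid supply, tRNA charging and folate metabolism. Aldh1l2 encodes the mitochondrial 10-formyltetrahydrofolate dehydrogenase, an enzyme of folate-bound one-carbon metabolism that yields NADPH. Lars encodes the cytosolic leucyl-tRNA synthetase, which loads leucine onto its tRNAs. Xpot encodes exportin-t, the receptor that carries tRNAs out of the nucleus.

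Each library held 4199999 or 4200001 usable reads, and the siGPS2 pair stood apart from the siCTL pair. Reads with a mapping score of 10 or more, which fit one place in the genome better than others, made up 81.9% and 82.3% of the siCTL libraries and 54.7% and 55.1% of the siGPS2 libraries. By the read names siCTL came from run 183 of the sequencer, while siCTL with FCCP and both siGPS2 libraries came from lane 1 of run 189. The FCCP comparison in siCTL therefore crosses from one run to the other and that in siGPS2 does not. Every series of 4 values below follows the order siCTL, siCTL plus FCCP, siGPS2, siGPS2 plus FCCP. To compare libraries, reads were divided by 1.13, 1.15, 0.876 and 0.880, the typical depth of each over well-covered windows.

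The promoter of Xpot is shown because the 3 loci moved together with FCCP, and it was searched for motifs of factors known from stress responses. No sequence is shown for Aldh1l2 and Lars. The window runs from 250 bases before to 50 after the annotated start, RefSeq, GRCm38.p6, chr10:121626283-121626582, minus strand, and capitals mark 2 motif matches.
Xpot: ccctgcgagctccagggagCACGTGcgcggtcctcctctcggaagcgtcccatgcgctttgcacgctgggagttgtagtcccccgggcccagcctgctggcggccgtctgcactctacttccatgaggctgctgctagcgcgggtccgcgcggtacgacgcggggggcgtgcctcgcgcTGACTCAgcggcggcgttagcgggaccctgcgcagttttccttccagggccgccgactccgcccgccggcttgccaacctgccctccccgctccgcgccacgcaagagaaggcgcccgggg
The window is 72.3% G and C. An E-box, CACGTG, begins 231 bases before the start, and 7.15% of the 32851 promoter windows of the table hold one. An AP-1 type site, TGANTCA, begins 71 bases before it, and 7.81% of windows hold one. The core of the amino acid response element bound by ATF4 with C/EBP partners was searched as TGATGNAA on both strands and has no match in these letters. It is found in 3.97% of all windows. The cyclic AMP response element TGACGTCA, found in 1.79%, has no match either.

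Transcription on the minus strand had steps at which limits could be set. With the 4 libraries pooled in 1 kb bins, Aldh1l2 ran from 82964000 down to 82906001, a stretch of 58 kb. Lars ran from 42389000 down to 42323001, or 66 kb, and Xpot from 121030000 down to 120990001, or 40 kb. In GRCm38 the annotated genes, all on the minus strand, span 46.7 kb (Aldh1l2), 59.9 kb (Lars) and 39.0 kb (Xpot). The stretches of reads at Aldh1l2 and Lars were thus longer than their genes. That of Xpot, on all pooled reads, matched its gene to about the bin size of 1 kb. On pooled reads of score 10 or more, Xpot ended at 120986001, a stretch of 44 kb.

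At the places of Washc4, Rbm27 and Tbk1, neighbouring transcription fitted the order of genes in that annotation. Upstream of Aldh1l2, plus-strand reads set in 9 kb from its start, where Washc4 lies head to head with a distance of 9.61 kb between annotated starts. Upstream of Lars they set in at 13 kb, and the annotated distance to Rbm27 is 13.2 kb. Past the end of Xpot, minus-strand reads went on at a lower rate for another 44 kb, the place of Tbk1, which is annotated 0.593 kb downstream on the same strand over 40.3 kb. Plac8l1 is annotated 5.59 kb past Lars on the same strand. Past the Lars limit, 0 to 10 kb held 6, 12, 12 and 32 sense reads and 10 to 20 kb held 1, 0, 2 and 2. D930020B18Rik is annotated on the plus strand, 15.3 kb upstream of Xpot. The 50 kb before the Xpot stretch held 9, 16, 64 and 62 plus-strand reads. Of these, 7, 11, 13 and 20 had a score of 10 or more. No stretch of reads was sought at these 2 places.

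Single libraries placed some limits elsewhere. Without FCCP the strongest step before Aldh1l2 lay at 82975000 in siCTL and 82974000 in siGPS2. The 10 kb window just before the stretch, beside the Washc4 start, held 25, 19, 26 and 22 minus-strand reads, about as many with FCCP as without. In siCTL and siGPS2 the strongest step after Xpot lay at 120946001, the far end of the Tbk1 stretch, so without FCCP the drop at the end of Xpot was the smaller one. In siGPS2 with FCCP the step lay at 120985001, and only siCTL with FCCP placed it at the pooled end, 120990001. In siGPS2 the Lars start was placed at 42408000, and in the other 3 libraries between 42388000 and 42389000.

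**Figure D1:**
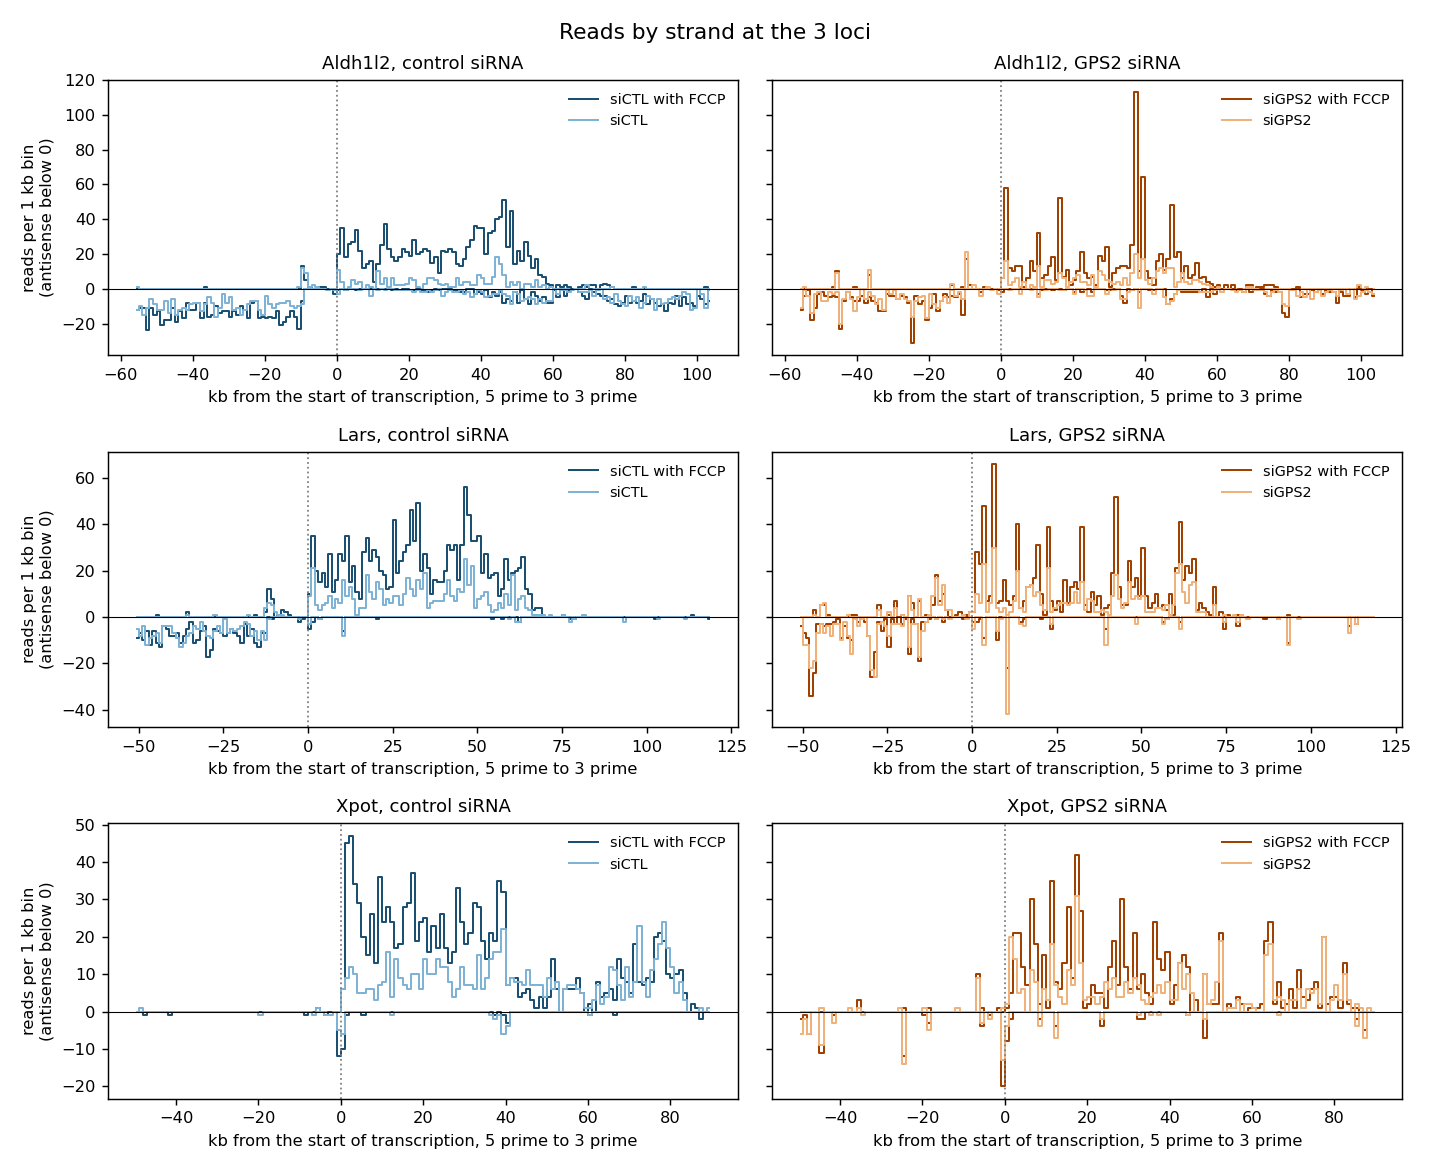
Reads per 1 kb bin against distance from the pooled start of transcription in kb, sense reads above 0 and antisense reads below, with control siRNA on the left and GPS2 siRNA on the right, lighter lines without and darker lines with 3 hours of FCCP. In siCTL 58 of 58 bins of Aldh1l2, 66 of 66 of Lars and 39 of 40 of Xpot were higher with FCCP. In siGPS2 these were 50, 53 and 32, with 7, 8 and 8 bins lower, and the lines are spiky, with 113 reads in the fullest bin of Aldh1l2. The choice of the loci favours bins that are higher with FCCP.

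Aldh1l2 was the least transcribed of the 3 loci before FCCP and had the largest FCCP ratio. It held 213, 1273, 318 and 893 sense reads. Per length and depth these were 0.845, 5.05, 1.26 and 3.54 RPKM, reads per kb of stretch and per 1000000 reads of the library. Both libraries with FCCP were above both without it. The choice of the loci favours such a separation at all 3 loci, and its share among all windows was not counted. The FCCP ratio was 5.87-fold in siCTL (log2 2.55) and 2.79-fold in siGPS2 (log2 1.48). An exact 95% interval was taken from the read counts, and a bin interval at the same level from the spread between 200 bp bins, which takes in pile-ups of reads. In siCTL the exact interval of the Aldh1l2 ratio ran from 2.34 to 2.77 and the bin interval from 2.31 to 2.79. For the siGPS2 ratio they ran from 1.30 to 1.67 and from 1.24 to 1.73. Both cover error within the libraries only. When reads within 10 bp of each other were counted as 1, the siGPS2 ratio was 0.67, which is 1.75 times lower as a fold, and the siCTL ratio 2.18.

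Lars, in contrast, was already well transcribed without FCCP. Its sense reads numbered 604, 1548, 513 and 969, or 2.05, 5.27, 1.74 and 3.30 RPKM. Again both libraries with FCCP were above both without. The ratio with FCCP was 2.52-fold in siCTL (log2 1.33, bin interval 1.18 to 1.48) and 1.88-fold in siGPS2 (log2 0.91, 0.75 to 1.07).

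Xpot followed Lars closely. It had 379, 965, 279 and 517 sense reads, or 2.26, 5.74, 1.66 and 3.08 RPKM. The libraries with and without FCCP did not overlap, which the choice of the loci favours. FCCP went with a 2.50-fold ratio in siCTL (log2 1.32, bin interval 1.12 to 1.52) and 1.84-fold in siGPS2 (log2 0.88, 0.65 to 1.12). On reads of score 10 or more the log2 ratios in siCTL were 2.53, 1.29 and 1.32 for Aldh1l2, Lars and Xpot, and in siGPS2 they were 1.55, 0.94 and 0.95.

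The loci lay closer together in level per length with FCCP than without it. In siCTL, Aldh1l2 (0.845, exact Poisson 95% interval 0.736 to 0.967) lay below Lars (1.89 to 2.23) and Xpot (2.03 to 2.49), whose intervals overlapped. In siCTL with FCCP the order of the values was the same. Aldh1l2 stood at 4.78 to 5.34, Lars at 5.01 to 5.53 and Xpot at 5.39 to 6.12, and only Aldh1l2 and Xpot did not overlap. These levels divide by the whole stretch, and that of Aldh1l2 takes in nearly empty bins upstream of its start at 82964000, which lowers its level. Between the found limits, without the first 1 kb, this library held 22.7 (Aldh1l2), 23.5 (Lars) and 24.6 (Xpot) reads per kb. Whether levels overlap on that length was not tested. In siGPS2, Aldh1l2 was again lowest (1.13 to 1.41), under Lars (1.60 to 1.90) and Xpot (1.47 to 1.87). In siGPS2 with FCCP it was highest at 3.54 (3.32 to 3.78), against 3.30 (3.09 to 3.51) for Lars and 3.08 (2.82 to 3.35) for Xpot, and neighbours in that order overlapped. Pile-ups of reads bear on that order. With the fullest 1 kb bin of each locus left out, Aldh1l2 held 13.2 reads per kb, Lars 13.1 and Xpot 12.2 in this library. With reads within 10 bp counted as 1 they held 7.0, 6.99 and 7.53, Xpot then being highest. Both of these counts were added after seeing the data. Counted in RPKM over reads of score 10 or more alone, Aldh1l2 stood at 0.949, 5.67, 1.84 and 5.46, Lars at 2.24, 5.66, 2.61 and 5.05, and Xpot at 2.35, 6.06, 2.44 and 4.75.

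**Figure D2:**
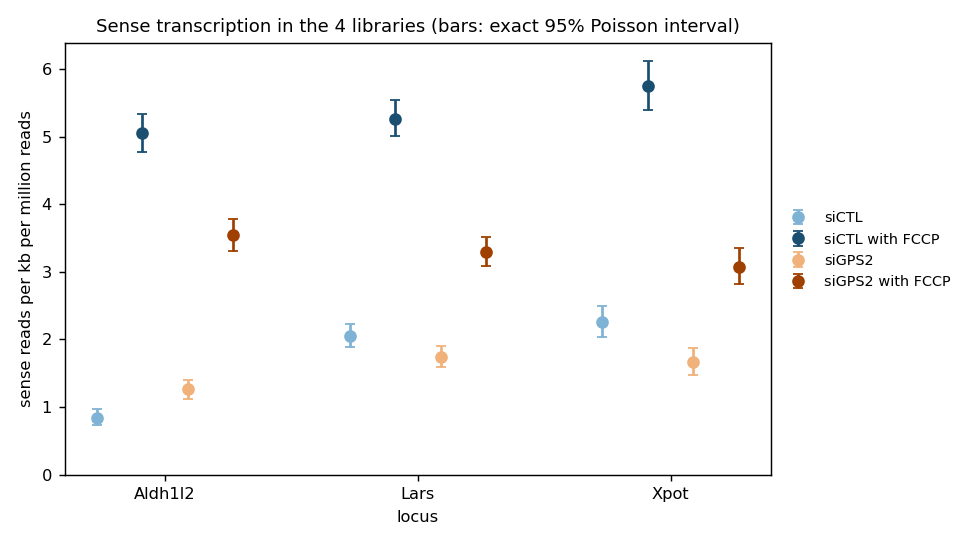
Sense reads per kb and per 1000000 reads (RPKM) at each locus in the 4 libraries, with exact 95% Poisson intervals as bars. Libraries with FCCP lie between 3.08 and 5.74 and those without between 0.845 and 2.26.

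Higher counts with FCCP covered Aldh1l2 from end to end. In 10 kb sections counted from the start, the log2 ratio in siCTL was 2.83, 2.48, 2.39, 2.79 and 2.32, and in siGPS2 it was 1.78, 1.59, 1.08, 1.89 and 1.18. The first section held 31, 224, 42 and 145 reads and the fifth 66, 335, 74 and 169. All 5 exact intervals were above 0 under each siRNA, the lowest bound being 1.87 in siCTL and 0.61 in siGPS2. The stretches were chosen for higher counts with FCCP, which favours sections above 0, so these values are a description. These intervals do not take in pile-ups of reads. Lars was as even in siCTL: its 6 sections lay between 1.25 and 1.62. In siGPS2 they lay between 0.72 and 1.24, with the highest in the first section, which went from 89 to 212 reads.

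Xpot was not even in siCTL. The first 10 kb went from 69 to 271 reads (log2 1.95, exact 95% interval 1.56 to 2.35), the second from 90 to 248 (1.44, 1.08 to 1.80), the third from 102 to 210 (1.01, 0.67 to 1.37) and the fourth from 118 to 236 (0.97, 0.65 to 1.30). The ratio thus fell along the gene, while the reads before FCCP increased along it. Up to the middle of Xpot the log2 ratio was 1.68 (1.42 to 1.95), and beyond it 0.99 (0.76 to 1.23). On reads of score 10 or more these parts went from 138 to 450 and from 185 to 388 reads. Under the GPS2 siRNA the 4 sections were 0.87, 0.77, 0.91 and 1.06, and the parts before and after the middle 0.81 (0.54 to 1.09) and 0.99 (0.65 to 1.33). The part of the change of sequencing run in this slope was not tested.

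**Figure D3:**
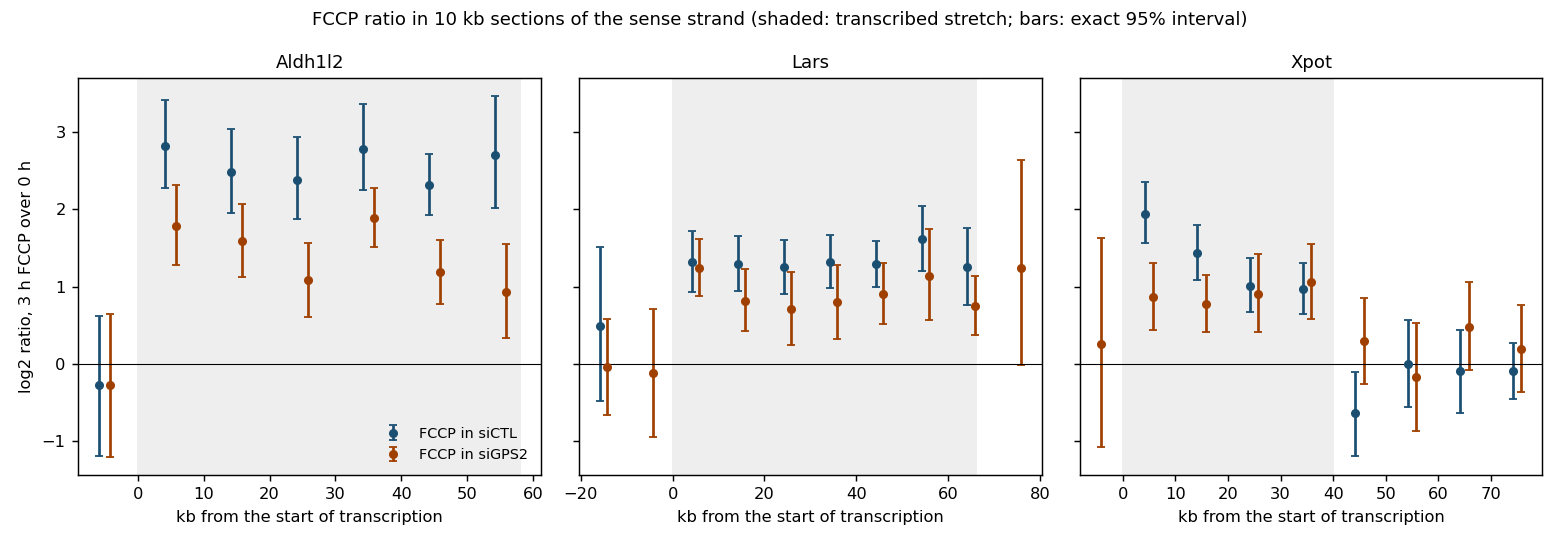
Log2 ratio of 3 hours over 0 hours of FCCP in 10 kb sections of the sense strand by distance from the start, with exact 95% intervals, for siCTL (blue) and siGPS2 (brown); sections with under 20 reads over the pair are left out and the transcribed stretch is shaded. Inside the shading all points lie above 0, which the choice of the loci favours. Aldh1l2 in siCTL stays between 2.32 and 2.83, and Xpot in siCTL steps down from 1.95 to 0.97.

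Reads next to the start of Aldh1l2 had a smaller FCCP ratio than the rest in siCTL. The start was refined in 100 bp bins for this, a step added after seeing the data, which placed it at 82964000 for Aldh1l2, 42388100 for Lars and 121029300 for Xpot. The first 1 kb of Aldh1l2 held 11, 20, 6 and 6 reads, a log2 ratio of 0.84 in siCTL (exact 95% interval -0.29 to 2.04), whereas the 57 kb that follow held 210, 1295, 325 and 918, a log2 ratio of 2.60 (2.39 to 2.81). As a share of all sense reads of the gene the first 1 kb went from 4.98% (exact binomial 95% interval 2.51 to 8.73) to 1.52% (0.931 to 2.34) in siCTL. In siGPS2 it was 1.81% (0.668 to 3.90) and 0.649% (0.239 to 1.41), where the intervals overlap.

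The values next to the start of Lars and Xpot depend on where the start is placed. From the refined start, the first 1 kb of Lars held 27, 42, 12 and 29 reads, against 8.92, 23.3, 7.69 and 14.4 reads per kb further on. The share of that first 1 kb was 4.51% (2.99 to 6.49), 2.73% (1.98 to 3.68), 2.38% (1.23 to 4.11) and 3.04% (2.05 to 4.34), with overlapping intervals. From the start found in 1 kb bins, which lies 0.9 kb further upstream, the first 1 kb of Lars held 9, 10, 2 and 2 reads, against 9.11, 23.5, 7.74 and 14.6 per kb further on, so the direction of that difference turns. From its refined start Xpot in siCTL had no such density, with 12 and 35 reads in its first 1 kb against 9.53 and 24.2 per kb further on. In siGPS2 its first 1 kb went from 14 to 5 reads, a share of 5.04% (2.78 to 8.31) without FCCP and 0.967% (0.315 to 2.24) with it, while the rest of the gene went from 264 to 512. From the start found in 1 kb bins, the first 1 kb of Xpot held 6, 6, 2 and 1 reads, and the siGPS2 shares were 0.717% (0.0869 to 2.57) and 0.193% (0.0049 to 1.07), which overlap. The start of Aldh1l2 was the same in both. All these shares rest on 42 reads or fewer.

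Beyond the end of Aldh1l2, sparse reads went on for about 20 kb and then all but stopped. The first 10 kb past the end held 1, 12, 2 and 10 sense reads, the next 10 kb 3, 15, 2 and 13, and the 10 kb after that 1, 1, 0 and 1. Both libraries with FCCP were above both without it over the first 20 kb. The tail adjoins a stretch chosen for higher counts with FCCP, and the share of such a separation among all windows was not counted. Relative to the gene the tail did not grow detectably: it made up 1.78% (0.486 to 4.49), 2.01% (1.33 to 2.91), 1.19% (0.326 to 3.03) and 2.43% (1.55 to 3.62) of the reads of gene and tail. After Lars the first 10 kb held 6, 12, 12 and 32 reads and the next 1, 0, 2 and 2. The 50 kb after the Lars stretch held 4, 2, 8 and 22 sense reads, of which 2, 0, 6 and 17 had a score of 10 or more. Their log2 FCCP ratio was -1.03 in siCTL (-4.49 to 1.78) and 1.45 in siGPS2 (0.23 to 2.83). Both siGPS2 libraries placed the end of Lars at 42317001, which is 6 kb beyond the end in the siCTL libraries. That end rests on a single 1 kb bin, 42317001 to 42318000, with 1, 0, 5 and 13 reads. The same bin supplies most of the siGPS2 reads behind the ratio of 1.45. Plac8l1 is annotated 5.59 kb past Lars on this strand, and whether the reads of that bin belong to it was not tested.

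Beyond the Xpot stretch, the place of Tbk1, a kinase of innate immune signalling that shares its strand, had smaller FCCP ratios. The stretch was chosen for higher counts with FCCP, so that choice partly fixes where they end. In the libraries without FCCP the strongest step lay at 120946001, the far end of the Tbk1 stretch. Over the 44 kb at the place of Tbk1 the libraries held 351, 324, 213 and 245 reads. The log2 FCCP ratio was -0.14 in siCTL (exact 95% interval -0.36 to 0.08) and 0.19 in siGPS2 (-0.08 to 0.47), below the Xpot intervals in both. The 10 kb just past Xpot went from 75 to 49 reads in siCTL (-0.64, -1.19 to -0.10) and from 52 to 64 in siGPS2.

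The divergent neighbours had smaller ratios than the loci. At the place of Washc4, a subunit of a complex that builds actin on endosomes, plus-strand reads numbered 463, 669, 279 and 350. Their log2 ratio was 0.50 in siCTL (0.33 to 0.68) and 0.32 in siGPS2 (0.09 to 0.55), under the lowest section of Aldh1l2 in each. At the place of Rbm27, an RNA-binding protein, they numbered 255, 312, 273 and 258, a log2 ratio of 0.26 (0.02 to 0.51) in siCTL and -0.09 (-0.34 to 0.16) in siGPS2. Minus-strand reads in the 10 kb before Aldh1l2, beside the Washc4 start, had log2 ratios of -0.42 (-1.36 to 0.50) and -0.25 (-1.14 to 0.63).

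Antisense reads inside the loci did not follow the sense reads. The Aldh1l2 stretch held 112, 91, 95 and 64 of them, more of them towards its 3 prime end, where the plus-strand gene D10Wsu102e runs towards it and is annotated to overlap its end. Their log2 FCCP ratio was -0.33 in siCTL (exact 95% interval -0.74 to 0.09) and -0.58 in siGPS2 (-1.06 to -0.10). In Lars the antisense strand held 17, 19, 100 and 65 reads, but of score 10 or more only 3, 6, 6 and 5. In Xpot it held 17, 14, 20 and 24, with 13, 5, 6 and 10 of score 10 or more.

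Divergent transcription from the start itself was seen at Xpot. The 2 kb upstream of its refined start held 11, 21, 17 and 28 antisense reads, of which 9, 13, 17 and 27 had a score of 10 or more. The counts with FCCP were higher under each siRNA, but the log2 ratios, 0.91 (-0.21 to 2.11) and 0.71 (-0.21 to 1.67), had intervals that include 0. Upstream of Lars there were 3, 6, 5 and 2 such reads and upstream of Aldh1l2 1, 3, 3 and 1.

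Reads of the siGPS2 libraries lay in short pile-ups that recurred at the same places. The fullest 1 kb bin of Aldh1l2 in siGPS2 with FCCP, 37 kb from the start, held 113 of the 893 reads, or 12.7%, and the bin stood at 2, 28, 20 and 113 over the libraries. At Lars a bin 6 kb from the start held 9, 27, 30 and 66 reads, and at Xpot one 17 kb from the start held 10, 37, 31 and 42. Across the 1 kb bins of a gene, which share their gene and its base composition, Pearson's r between siGPS2 and siGPS2 with FCCP was 0.75 at Aldh1l2 (58 bins), 0.88 at Lars (66 bins) and 0.66 at Xpot (40 bins). Between siCTL and siCTL with FCCP it was 0.47, 0.60 and 0.22, between siCTL and siGPS2 0.28, 0.09 and 0.17, and between siCTL with FCCP and siGPS2, which share a lane, 0.34, 0.25 and 0.51. Between siCTL with FCCP and siGPS2 with FCCP, which share that lane too, it was 0.18, 0.28 and 0.32. At Xpot the values of both of these pairs, 0.51 and 0.32, were above the 0.22 of the siCTL pair. Leaving out the fullest bin placed the FCCP ratio of Aldh1l2 in siGPS2 at 1.38, against 1.48 with it.

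The GPS2 siRNA went with a higher Aldh1l2 signal before FCCP, a comparison the choice of loci did not use, although it shares their libraries. The log2 ratio of siGPS2 to siCTL was 0.95, or 1.93-fold (bin interval 0.62 to 1.27), and all 6 windows of 10 kb lay above 0, between 0.53 and 1.39. For Lars it was 0.13 (bin interval -0.14 to 0.40) and for Xpot -0.08 (-0.44 to 0.29). Of the 17 windows, 7 were higher by at least 1.5-fold and 1 lower, where 31.8% of all windows were higher and 23.3% lower. The 7 were 5 of 6 windows of Aldh1l2, 2 of 7 of Lars and 0 of 4 of Xpot. With so few windows the count is not read as a result about the members. On all reads a ratio as high as that of Aldh1l2 was common, in 28.5% of 60 kb stretches. On reads of score 10 or more, 17.7% of all windows were higher and 29.6% lower, and the Aldh1l2 ratio was 0.88. The windows of the loci were not counted on those reads. With equal total reads as the scale, which moves the median of all windows from 0.09 to -0.28, the ratios were 0.58 for Aldh1l2, -0.24 for Lars and -0.44 for Xpot. The sign for Lars therefore turns with the scale. The siCTL and siGPS2 libraries without FCCP also come from different sequencing runs, so siRNA and run cannot be told apart here.

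With FCCP, where both libraries come from the same lane, Aldh1l2 did not stand higher in siGPS2. Its log2 ratio was -0.12, with an exact interval from -0.25 to just below 0 and a bin interval from -0.47 to 0.22. Lars was at -0.29 (bin interval -0.54 to -0.03) and Xpot at -0.51 (-0.84 to -0.19), or 1.22-fold and 1.43-fold lower. Of the 17 windows, 2 were higher and 5 lower by at least 1.5-fold, where 33% of all windows were higher and 20.7% lower. The 2 higher ones were the first and last 10 kb of Lars, at 0.64 and 0.61, while its 5 inner windows lay between -0.87 and -0.40. With equal total reads the ratios were -0.51, -0.68 and -0.90. The siRNA goes together with the share of low-score reads in all 4 libraries, so the siRNA and that difference between libraries cannot be told apart in these ratios.

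The FCCP ratio was smaller in siGPS2 than in siCTL at all 3 loci. The difference of the log2 ratios, siGPS2 minus siCTL, was -1.07 for Aldh1l2 (bin interval -1.41 to -0.73), -0.42 for Lars (-0.64 to -0.21) and -0.44 for Xpot (-0.74 to -0.13). With equal total reads they were -1.09, -0.44 and -0.46. Windows lower by at least 1.5-fold in this difference numbered 6 of 6 for Aldh1l2, 2 of 7 for Lars and 2 of 4 for Xpot, where 14.9% of all windows were lower and the median of all was 0.04. Among stretches of the same length, 1.72% had a difference as low as Aldh1l2, 12.6% as low as Lars and 12.1% as low as Xpot. On the scaled reads, siCTL and siGPS2 differed at Aldh1l2 mainly without FCCP, at 189 and 363, against 1107 and 1015 with it. At Xpot they differed mainly with FCCP, at 839 and 587, against 336 and 319 without it. On unscaled reads Aldh1l2 differed in both states, at 213 and 318 without and 1273 and 893 with FCCP, so the place of the gap depends on the scale. The loci were chosen on both FCCP ratios, from which this difference is made, so it is a description too. It sets a ratio that crosses sequencing runs (siCTL) against one within a lane (siGPS2), so the run and a difference in response cannot be told apart.

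**Figure D4:**
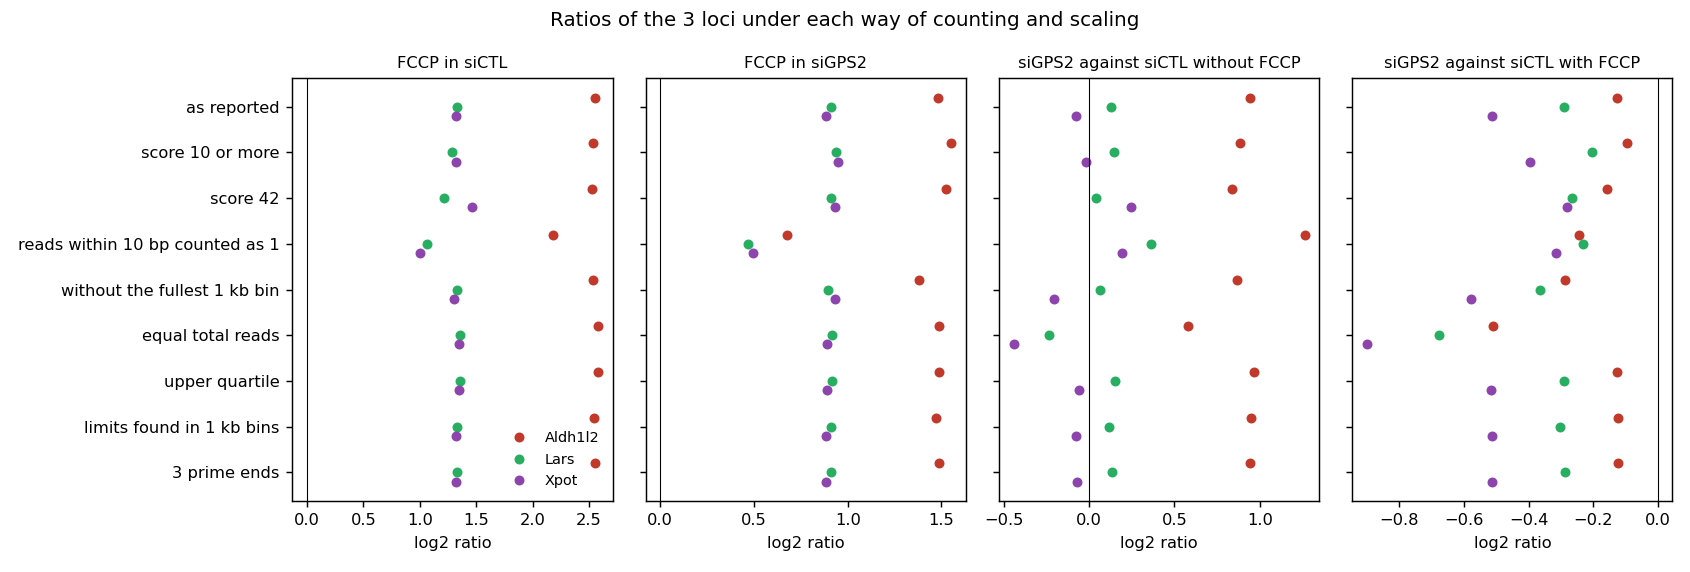
Log2 ratio of each locus in the 4 comparisons, as reported and under 8 other ways of counting or scaling reads. The FCCP ratios stay above 0 throughout, at 0.47 or more, whereas Lars and Xpot cross 0 for siGPS2 against siCTL without FCCP.

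Set against the whole genome, ratios of this size with FCCP were uncommon, which the choice of the loci fixes. All 17 windows were higher by at least 1.5-fold in siCTL and in siGPS2, where 14% and 11.8% of all windows were. Of 23461 stretches of 60 kb, 29 in siCTL (0.124%) and 38 in siGPS2 (0.162%) had a ratio as high as Aldh1l2. Of 22545 stretches of 70 kb, 1.55% and 1.13% reached that of Lars, and of 26576 stretches of 40 kb, 1.43% and 1.75% reached that of Xpot. The choice of the stretches also bears on the windows beside them, so these do not show where higher counts end. The 10 kb after Aldh1l2 held 10, 54, 16 and 40 reads, higher with FCCP as well. The 10 kb before Xpot held 1, 1, 10 and 12, of which 0, 0, 2 and 1 had a score of 10 or more. Those before Lars held 9, 15, 43 and 42, of which 9, 15, 25 and 30 had such a score.

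**Figure D5:**
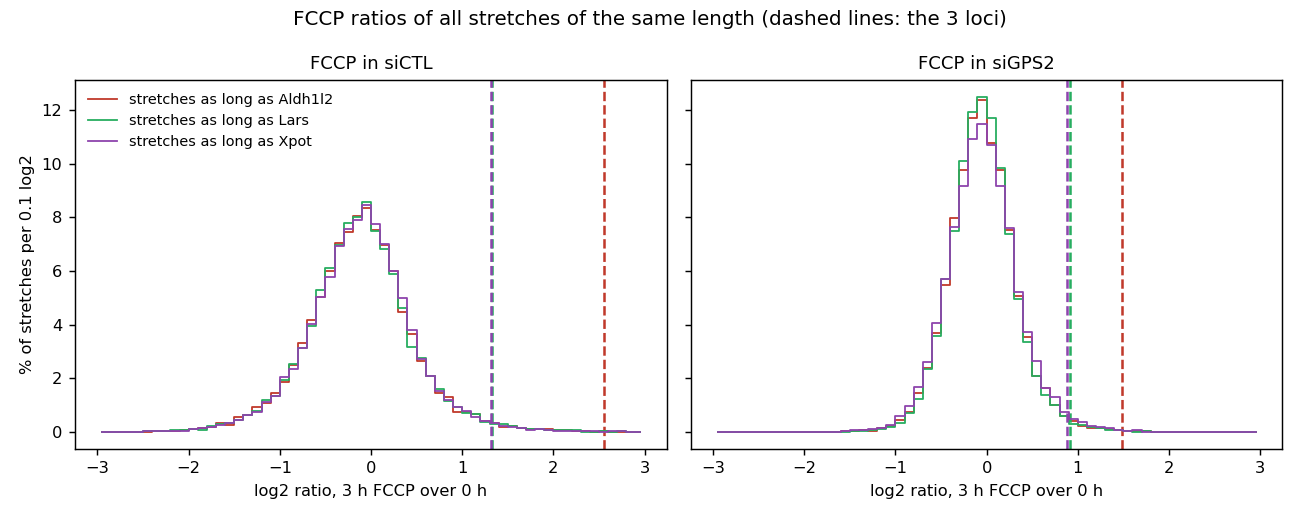
Distribution of the log2 ratio of 3 hours over 0 hours of FCCP over all strand-specific stretches as long as each locus, as percent of stretches per 0.1 log2, in siCTL and in siGPS2, with a dashed line for each locus. Aldh1l2 lies at 2.55 and 1.48, far out in the upper tail, and Lars and Xpot lie close together at 1.33 and 1.32 in siCTL and at 0.91 and 0.88 in siGPS2.

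The stretches of 50 kb whose 4 scaled values were most like those of each locus were sought among 11215 with at least 400 reads, by Euclidean distance of centred log2 values over the 4 libraries. Nearest to Aldh1l2 was chromosome 9, plus strand, 64650001 to 64700000, at a distance of 0.097, with 97, 542, 148 and 394 reads. The second was chromosome 8, plus strand, 88400001 to 88450000, at 0.196. For Lars these were chromosome 13, plus strand, 13450001 to 13500000, at 0.099, and chromosome 19, minus strand, 40550001 to 40600000, at 0.121. Xpot was matched by chromosome 13, plus strand, 9450001 to 9500000, at 0.039, and by chromosome 10, minus strand, 6300001 to 6350000, at 0.087. The likeness rests on 4 values per stretch, and the genes at these places were not analysed here.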

How the data were processed

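The deposited files list aligned reads of 50 bp, 1 line per read, with position, strand and a score from 0 to 42, read here as mapping quality. The submitters' processing notes name Bowtie, HOMER and mm8, without versions; how reads were filtered, and why the files hold nearly equal numbers of them, is not given in the sources used here. In 3 libraries 1 line with empty fields was removed. No read shares its position and strand with another in its library. Reads were counted by 5 prime end with Python 3.11.15 and scipy 1.17.1. Scale factors were medians of ratios over 35361 windows of 10 kb with at least 20 reads in every library. Limits of transcription were the steps of highest Poisson likelihood. No test was run, with 1 library per group. A window was counted as higher or lower at 1.5-fold, with 0.5 added to each count. The calculations were tested on simulated data of independent reads. These hold no pile-ups, so they do not show how the intervals behave where reads pile up. The members and lists were chosen with earlier results of these data known. The loci, their annotated neighbours and the 2 most similar 50 kb stretches per locus were named. These similar stretches lay more than 200 kb from the loci. Gps2, other genes of the stress response and cell markers were not analysed here, since they could not be placed in mm8. Sequences came from RefSeq; 1 of the 3 loci is shown. Alternatives changed the scale, the score minimum, joined reads, limits and bins.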

Additional observations from a re-analysis of the deposited data

How the results depend on the processing

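No paired analysis was possible because each group has 1 library. The direction of the 6 FCCP ratios and their 3 differences was the same under 8 alternatives each. That of siGPS2 against siCTL was the same for 4 of 6 ratios. Reads of score 10 or more, the upper quartile, the found limits and 3 prime ends kept all 15 values within their intervals from read counts. These intervals are exact for the ratios and a normal approximation for the differences. Aldh1l2 held 3.55, 21.2, 5.30 and 14.9 reads per kb over the 4 libraries. Counting reads within 10 bp as 1 kept 91.1%, 72.3%, 79.6% and 47.0% of these, which is not the order of density. It gave FCCP log2 ratios of 2.18, 1.06 and 1.01 (Aldh1l2, Lars, Xpot) in siCTL and 0.67, 0.47 and 0.50 in siGPS2, and a difference of -1.51 for Aldh1l2. It gave siGPS2 against siCTL without FCCP as 1.26, 0.36 and 0.19, and with FCCP as -0.32 for Xpot. Equal total reads gave 0.58, -0.24 and -0.44 without FCCP, and -0.51, -0.68 and -0.90 with it. Score 42 alone placed Xpot at 0.24 without and -0.28 with FCCP, and without its fullest bin Aldh1l2 with FCCP was at -0.29; the cause was not tested. Of all windows, those higher in siGPS2 were 17.7% without and 18.7% with FCCP at score 10 or more, and 21.4% with FCCP at a minimum of 100 reads; those lower were 37.2% and 35.9% with equal total reads. In siGPS2, flanks of 20 kb moved the antisense FCCP ratio after Lars to 0.99 and after Xpot to 1.41, and score 10 or more moved that before Xpot to 0.60 and its sense flank to -1.61, all on few reads. Score 10 or more raised levels (RPKM) to 5.67 for Aldh1l2 in siCTL plus FCCP and to 1.84 and 5.46 in the siGPS2 libraries, to 2.24, 5.66, 2.61 and 5.05 for Lars in the 4 libraries, and to 2.44 and 4.75 for Xpot in siGPS2, since fewer reads make up the total. A flank ratio with a count of 0 gives no value.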
